A study of Mus musculus with 6 samples.

Results

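The genes described here are 10 genes of the oligodendrocyte lineage before myelination, read from the count tables of the nucleus accumbens by gene symbol. They were chosen as known stage genes, though with earlier results of these data known, and they are 10 of the 54658 genes listed. Pdgfra, Cspg4, C1ql1, Neu4, Lhfpl3, Olig1 and Olig2 are taken as genes of precursors, and Gpr17, Bcas1 and Enpp6 as genes of differentiating cells. Counts were available for 8 of the 10, since Gpr17 and C1ql1 were listed at 0 in every library.

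The study delivered the long noncoding RNA Gas5 to the nucleus accumbens, a ventral striatal region, of adult male C57BL6 mice aged 8 weeks. A herpes simplex virus vector, p1005+, carried Gas5 with EGFP in the 3 samples of the Gas5 group, and EGFP alone in the 3 samples of the GFP group. Both groups therefore received virus and EGFP, and no group without injection was analysed here. Which cells the vector infected is not in the labels, and neither is the number of mice behind a sample. The p-values below therefore describe the spread among these 6 libraries, lettered A, B and C within each group.

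Oligodendrocyte precursors are glial cells that persist in the adult brain, divide, and give rise to myelinating oligodendrocytes. Platelet-derived growth factor acting on the receptor PDGFRα keeps precursors dividing, and the transcription factors OLIG1 and OLIG2 set the lineage. On leaving the precursor state the cells pass through a short premyelinating stage marked by the receptor GPR17, the protein BCAS1 and the phosphodiesterase ENPP6, before myelin genes take over.

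Total counts were between 38605056 and 42524874 in the Gas5 libraries, and in comparison between 32359052 and 56081575 in the GFP libraries, and the values below are CPM, counts scaled to library size, with TMM as the correction for library composition. Gas5 RNA itself was higher in the Gas5 group, at 22.6, 23.3 and 23.6 CPM, against 18.6, 16.5 and 18.3 CPM in the GFP group (log2 fold change 0.38, edgeR adjusted p = 0.0163). Without GFP B the adjusted p for Gas5 was 0.0727 and without GFP C it was 0.0677. The tissue label was met by markers of medium spiny neurons, the principal neurons of the accumbens: 12 of 12 were tested and their summed level was between 5884 and 7715 CPM in the Gas5 libraries, and in comparison between 6964 and 7851 CPM in the GFP libraries. Markers of cortical excitatory neurons were lower in the Gas5 libraries, with a sum between 189 and 247 CPM against between 413 and 554 CPM in the GFP libraries, and 8 of 11 fell by the test, or 4 of 11 without GFP B or GFP C. The mean log2 CPM of those 11 genes, called the cortical score, was 1.997 for Gas5 A, 2.67 for Gas5 B and 2.86 for Gas5 C, against 3.85 for GFP A, 4.34 for GFP B and 4.39 for GFP C. The score did not overlap between the groups, so a fit with it as a covariate cannot tell the score from the group. That fit called 0 of 17563 genes, and its log2 fold changes below are descriptions only.

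The counting used in the deposited tables decides which of the 10 genes can be read. Each gene was counted over its whole span, introns included, and none of the 12811 listed genes whose span is wholly shared with other listed genes had a count in any library. Gpr17, which encodes an orphan receptor of premyelinating cells, lies on chromosome 18 of GRCm38.p6 from 31942997 to 31949636 on the minus strand, wholly inside Lims2 on the plus strand. C1ql1, which encodes a secreted complement-related protein, lies on chromosome 11 from 102939264 to 102946688 on the minus strand, wholly inside Gm26668 on the plus strand. Their 0 counts therefore say nothing of their expression. The remainder of Lims2, the focal adhesion gene around Gpr17, was measured at 9.18, 10.7 and 10.1 CPM in the Gas5 libraries, against 10.1, 10.01 and 9.57 CPM in the GFP libraries, and it shares 18.3% of its span with Gpr17.

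**Figure D1:**
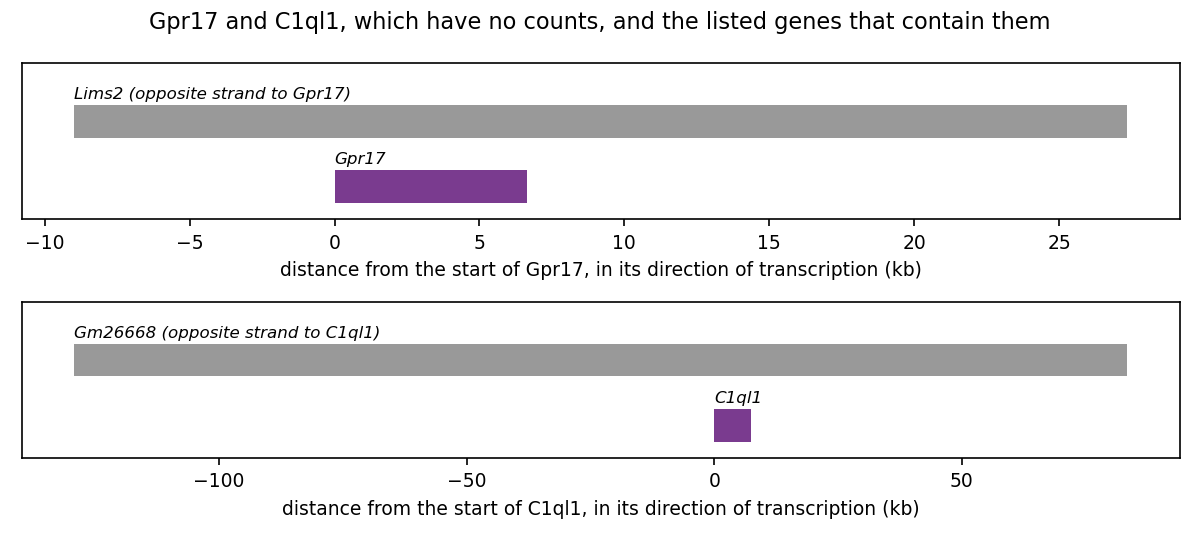
Spans of Gpr17 and C1ql1 (purple) and of the listed genes that contain them (grey), as distance in kb from the start of each contained gene along its own direction of transcription. Both lie wholly within a gene on the opposite strand, and both were listed at 0 in the 3 Gas5 and the 3 GFP libraries.

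None of the 8 measurable genes passed the test between the Gas5 and GFP groups. With the quasi-likelihood test of edgeR, adjusted over 17563 genes, 0 rose and 0 fell, where 1.48% of all tested genes rose and 3.96% fell, 5.44% in all. At an unadjusted p under 0.05 there was 1 gene with a higher level, Cspg4, and 1 with a lower level, Bcas1, beside 10.2% and 11.2% of all tested genes, 21.4% in all. DESeq2, limma-voom and the edgeR exact test each called 0. In 2 of the 8 genes every Gas5 value was above every GFP value, in 0 it was below, and in 6 the groups overlapped. Over all tested genes 13.8% had groups apart with Gas5 higher and 13.9% with Gas5 lower, 27.7% in all. The log2 fold changes were positive for 4 genes and negative for 4, with a median of 0.044 against 0.016 over all tested genes. The median absolute log2 fold change was 0.14 for the 8 genes and 0.12 over all tested genes. The 95% intervals, which are not adjusted for the number of genes, stayed between 0.767 and 1.41 as a ratio of Gas5 to GFP. Values of this size in whole tissue do not distinguish fewer cells of a type from less RNA per cell.

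**Figure D2:**
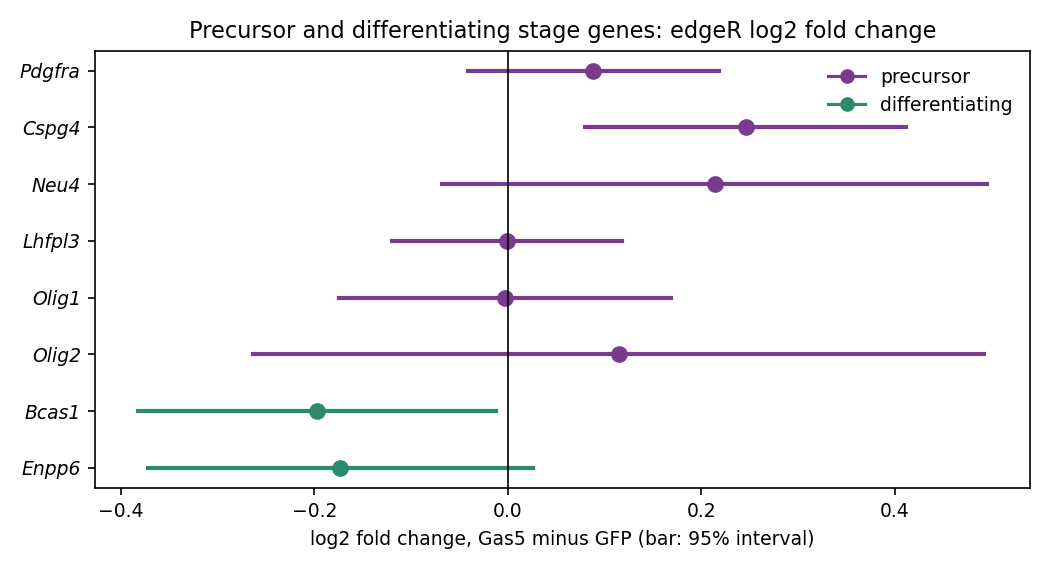
Log2 fold change, Gas5 minus GFP, of the 8 measurable genes with 95% intervals from edgeR, for precursor genes (purple) and differentiating genes (green). The points run from -0.20 for Bcas1 to 0.25 for Cspg4, and the intervals of Cspg4 and Bcas1 are the ones that leave out 0.

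Sequence upstream of 3 of the genes is shown so that the pair of surface genes that define precursors, Pdgfra and Cspg4, can be read beside Enpp6, a gene of differentiating cells. Each line is bases 250 to 101 before the RefSeq start on the plus strand of GRCm38.p6, with capitals for the E-box CANNTG, the letters that basic helix-loop-helix factors such as OLIG2 recognise.
Pdgfra, chr5:75152001-75152150: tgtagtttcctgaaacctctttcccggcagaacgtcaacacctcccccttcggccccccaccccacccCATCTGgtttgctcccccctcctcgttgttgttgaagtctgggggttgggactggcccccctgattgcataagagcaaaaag
Cspg4, chr9:56864854-56865003: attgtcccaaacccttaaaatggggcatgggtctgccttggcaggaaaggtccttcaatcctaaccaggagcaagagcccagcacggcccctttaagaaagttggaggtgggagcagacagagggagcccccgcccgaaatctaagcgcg
Enpp6, chr8:46986637-46986786: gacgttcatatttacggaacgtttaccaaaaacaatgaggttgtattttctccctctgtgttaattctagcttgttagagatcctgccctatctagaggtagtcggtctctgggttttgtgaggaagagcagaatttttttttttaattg
The window of Pdgfra holds 1 match and those of Cspg4 and Enpp6 hold 0, and 49.3% of the 32851 promoter windows of the same length hold at least 1. CANNTG reads the same on both strands, so 1 search covers both. RefSeq windows were matched for 6 of the 10 genes.

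Pdgfra, the receptor through which PDGF holds precursors in division, was measured at 32.8, 31.8 and 29.6 CPM in the Gas5 libraries, against 29.1, 28.8 and 30.8 CPM in the GFP libraries. The groups overlapped, because GFP C lay above Gas5 C. The log2 fold change was 0.088 ± 0.0568 (SE), with an adjusted p of 0.414 and a ratio interval from 0.972 to 1.16. The gene spans chromosome 5 from 75152292 to 75198215 (plus strand), with 21.8% of that span annotated as exon. Pdgfra is also expressed by fibroblasts of vessels and meninges, and the 8 markers of those cells summed to between 123 and 142 CPM in the Gas5 libraries, and in comparison between 101 and 105 CPM in the GFP libraries. Of the 7 fibroblast markers tested 1 rose and 0 fell, beside 1.48% and 3.96% of all tested genes. The 7 markers had 5 positive and 2 negative log2 fold changes. Their median was 0.50, and their part in the Pdgfra level was not tested. The gene called was Col6a1, a collagen chain (log2 fold change 0.34, edgeR adjusted p = 0.0177), and 0 were called without GFP B or without GFP C. Col6a1 made up most of the fibroblast sum, at 108, 108 and 98.2 CPM in the Gas5 libraries, against 84.3, 86.0 and 78.0 CPM in the GFP libraries. Igf2, also on that list, was listed at 0 in all 6 libraries.

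Cspg4, which encodes the proteoglycan NG2 on the surface of precursors, came closest to the threshold. It was measured at 25.9, 27.1 and 22.6 CPM in the Gas5 libraries, against 20.9, 21.8 and 21.1 CPM in the GFP libraries. The groups were apart, and Gas5 C was the Gas5 library nearest to the GFP values. The group means were 25.2 ± 2.33 CPM in the Gas5 group, against 21.2 ± 0.453 CPM in the GFP group (SD, n = 3 each). The ratio was 1.19, with an interval from 1.06 to 1.33, and the log2 fold change was 0.25 ± 0.0727 (SE, adjusted p = 0.0935). Without Gas5 C the log2 fold change was 0.31 and the adjusted p 0.0368, and with the cortical score as a covariate the log2 fold change was 0.12. The gene spans chromosome 9 from 56865033 to 56899870 on the plus strand and shares no base with another listed gene.

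NG2 is also made by pericytes, and markers of pericytes and smooth muscle gave no called gene. Their 11 members summed to between 89.5 and 93.1 CPM in the Gas5 libraries, and in comparison between 89.8 and 97.3 CPM in the GFP libraries, with 0 listed at 0. With edgeR 0 of the 11 tested rose or fell, 0 had an unadjusted p under 0.05, and DESeq2, limma-voom and the exact test called 0. Their median log2 fold change was -0.0083. Rgs5, a regulator of G protein signalling and a pericyte marker, was at 37.9, 43.5 and 40.8 CPM in the Gas5 libraries, against 41.1, 40.3 and 44.1 CPM in the GFP libraries.

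Neu4, a sialidase gene enriched in precursors, was the least abundant of the 8 by CPM. It was measured at 6.15, 4.93 and 4.80 CPM in the Gas5 libraries, against 4.75, 4.28 and 4.66 CPM in the GFP libraries. The groups did not overlap, but Gas5 C and GFP A nearly met, and Gas5 A stood highest. The log2 fold change was 0.21 ± 0.124 (SE), with an adjusted p of 0.363 and a ratio interval from 0.954 to 1.41. The counts behind these values were 265, 211 and 186 in the Gas5 libraries, against 264, 165 and 148 in the GFP libraries, so counting alone gave a relative SD of 8.22% in the shallowest. Without Gas5 A the log2 fold change was 0.085. The gene lies on chromosome 1 from 94020451 to 94028334 on the plus strand.

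Lhfpl3, a tetraspan membrane protein gene used as a precursor marker, was the most abundant of the 8 by CPM and showed the narrowest interval. It was measured at 376, 407 and 383 CPM in the Gas5 libraries, against 386, 382 and 398 CPM in the GFP libraries. The highest and the lowest value were both in the Gas5 group, at Gas5 B and Gas5 A. The ratio was 0.999, with an interval from 0.920 to 1.09 and an adjusted p of 0.994. Lhfpl3 spans chromosome 5 from 22746059 to 23275597 (plus strand), with 0.607% of that span annotated as exon, so its counts can hold a large share of intronic reads. A stretch of 17.0% overlaps other listed genes and carries no counts.

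Olig1 and Olig2, the basic helix-loop-helix factors of the lineage, lie near each other on chromosome 16, from 91269772 to 91271933 and from 91225457 to 91228677 on the plus strand. Olig1 was measured at 34.8, 30.1 and 32.2 CPM in the Gas5 libraries, against 35.4, 30.9 and 30.9 CPM in the GFP libraries. The groups overlapped throughout, and the ratio was 0.998 with an interval from 0.886 to 1.12 and an adjusted p of 0.987.

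Olig2 was measured at 11.4, 9.75 and 12.1 CPM in the Gas5 libraries, against 12.7, 7.78 and 9.92 CPM in the GFP libraries. Both the highest and the lowest value were in the GFP group, at GFP A and GFP B, and its coefficient of variation there was 24.4%, against 10.7% in the Gas5 group. The log2 fold change was 0.11 ± 0.166 (SE), the largest standard error of the 8, with an adjusted p of 0.736 and a ratio interval from 0.833 to 1.41. Without GFP A the log2 fold change was 0.32 (adjusted p 0.240), and without GFP B it was -0.044 (adjusted p 0.912). Olig1 stood at 3.07, 3.09 and 2.67 times Olig2 by CPM in the Gas5 libraries, against 2.78, 3.97 and 3.11 times in the GFP libraries.

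Bcas1, whose protein marks premyelinating and newly myelinating cells, had the smallest unadjusted p of the differentiating genes. It was measured at 44.3, 46.1 and 52.3 CPM in the Gas5 libraries, against 59.7, 50.1 and 53.5 CPM in the GFP libraries. The groups overlapped, with Gas5 C above GFP B. The group means were 47.6 ± 4.17 CPM in the Gas5 group, against 54.5 ± 4.87 CPM in the GFP group (SD, n = 3 each), with a log2 fold change of -0.20 ± 0.0812 (SE, adjusted p = 0.205) and a ratio interval from 0.767 to 0.992. Without Gas5 C the adjusted p was 0.0962, and without GFP A the log2 fold change was -0.12 with an adjusted p of 0.430. Bcas1 spans chromosome 2 from 170346991 to 170427845 on the minus strand, and 32.2% of it is shared with the antisense genes Bcas1os1 and Bcas1os2 and not counted.

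Enpp6, a choline-specific phosphodiesterase gene of newly forming oligodendrocytes, did not pass the test. It was measured at 8.72, 9.91 and 8.67 CPM in the Gas5 libraries, against 9.97, 9.80 and 11.1 CPM in the GFP libraries. Gas5 B lay above GFP B, so the groups overlapped there. The log2 fold change was -0.17 ± 0.0874 (SE), with an adjusted p of 0.298 and a ratio interval from 0.772 to 1.02. The gene spans chromosome 8 from 46986887 to 47096762 on the plus strand, with 28.0% of the span shared and not counted.

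**Figure D3:**
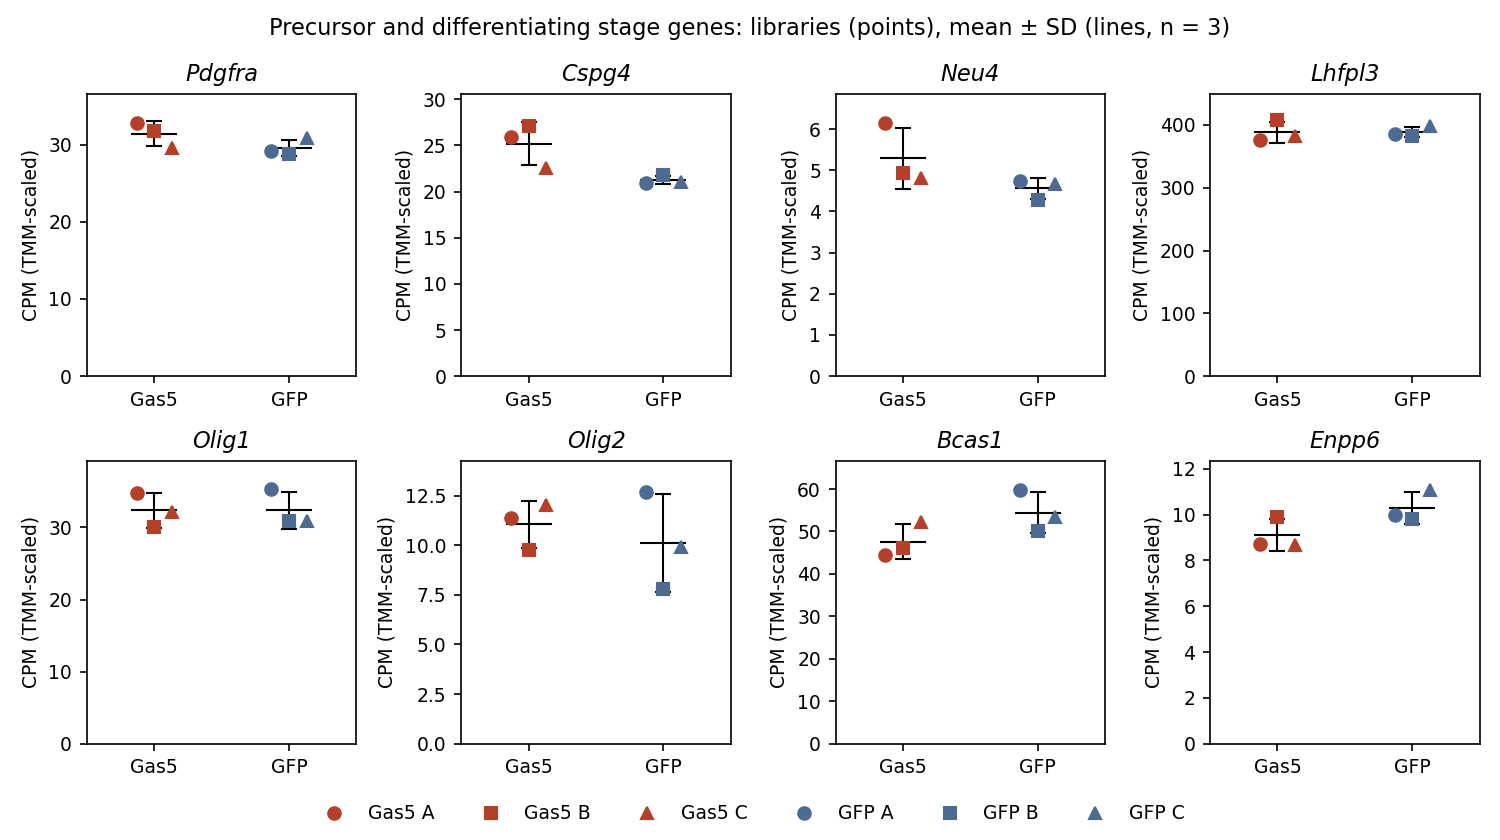
CPM scaled by TMM of the 8 measurable genes in each library, with the Gas5 group left of the GFP group, library letters by symbol, and the mean ± SD of 3 libraries as lines. The groups are apart for Cspg4 and Neu4 and overlap for the other 6, and Olig2 has its highest and lowest library within the GFP group.

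Levels between genes were compared per kb of counted span, as CPM per kb. Olig1 was highest, at 16.1 ± 1.19 in the Gas5 group, against 16.1 ± 1.29 in the GFP group, followed by Olig2 at 3.43 ± 0.367 CPM per kb in the Gas5 group, against 3.15 ± 0.766 in the GFP group. Both are short genes, with 100% and 78.5% of their span annotated as exon. Lhfpl3, at 0.884 ± 0.0379 in the Gas5 group, against 0.885 ± 0.0189 in the GFP group, and Bcas1, at 0.868 ± 0.0761 CPM per kb in the Gas5 group, against 0.994 ± 0.0890 in the GFP group, came next. Their ranges overlapped in the Gas5 group, whereas in the GFP group every Bcas1 value was above every Lhfpl3 value. Pdgfra, Cspg4 and Neu4 followed, with overlapping ranges between 0.543 and 0.780 CPM per kb over the 6 libraries. In the GFP group alone every Pdgfra value was above every Cspg4 and every Neu4 value. Enpp6 was lowest, between 0.110 and 0.140 CPM per kb. All SDs are over 3 libraries, and the long genes are diluted by intron in this measure.

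The precursor and the differentiating genes were set against each other within each library. The mean log2 CPM of the 6 measured precursor genes, minus that of Bcas1 and Enpp6, was 0.62 for Gas5 A, 0.41 for Gas5 B and 0.39 for Gas5 C, against 0.21 for GFP A, 0.19 for GFP B and 0.15 for GFP C. The precursor mean alone was 4.96, 4.87 and 4.85 in the Gas5 libraries, against 4.86, 4.70 and 4.79 in the GFP libraries. These overlapped, since GFP A lay above Gas5 C. The mean of Bcas1 and Enpp6 was 4.35, 4.46 and 4.46, against 4.65, 4.51 and 4.64, with every Gas5 value below every GFP value. The difference was larger in every Gas5 library than in any GFP library, at 0.47 ± 0.126 in the Gas5 group, against 0.18 ± 0.0331 in the GFP group (SD, n = 3 each). It is a description without a test, because the genes were chosen with earlier results of these data known. The cortical score ran in the opposite order through the same 6 libraries, from Gas5 A as the lowest to GFP C as the highest, and its part in the difference was not tested. The ratio of Cspg4 to Bcas1 by CPM was 0.584, 0.587 and 0.432 in the Gas5 libraries, against 0.350, 0.434 and 0.394 in the GFP libraries, and the groups overlapped at Gas5 C and GFP B. The wider lists described below did not show the same shift. Mean log2 CPM of 22 other precursor genes was 4.77, 4.71 and 4.75 in the Gas5 libraries, against 4.78, 4.79 and 4.85 in the GFP libraries. There every Gas5 value was below every GFP value. For 21 other differentiating genes it was 4.74, 4.66 and 4.68, against 4.73, 4.68 and 4.76, and the groups overlapped.

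Other genes of precursors were mixed. Of 22 tested, 0 rose and 3 fell, 12 had a positive and 10 a negative log2 fold change, and the median was 0.035 against 0.016 over all genes. Over all tested genes 1.48% rose and 3.96% fell. At an unadjusted p under 0.05 there were 5 in each direction, beside 10.2% of all tested genes higher and 11.2% lower. DESeq2, limma-voom and the exact test called 0 higher, with 4 lower by DESeq2, 3 by limma-voom and 5 by the exact test. Sox5, a transcription factor gene of precursors that deep-layer cortical neurons also use, fell to 95.4 ± 5.12 CPM in the Gas5 group, against 169.9 ± 22.6 CPM in the GFP group (SD, n = 3 each, log2 fold change -0.83, adjusted p = 0.00516). Dscam, a cell adhesion gene active in neurons, fell to 163 ± 13.3 CPM in the Gas5 group, against 250.1 ± 26.9 CPM in the GFP group (SD, n = 3 each, adjusted p = 0.0107). Xylt1, which starts the sugar chains of proteoglycans, fell to 197 ± 17.5 CPM in the Gas5 group, against 281 ± 21.3 CPM in the GFP group (SD, n = 3 each, adjusted p = 0.0130). The mean cortical score was 2.51 for the Gas5 libraries and 4.19 for the GFP libraries beside these 3 genes. As a covariate it left a log2 fold change of -0.51 for Sox5, -0.48 for Dscam and -0.0033 for Xylt1. That fit called 0 genes in all and cannot tell the score from the group. Without GFP B or without GFP C 1 of the 22 was called lower, and the adjusted p of Dscam and Xylt1 was then between 0.0577 and 0.0669, while 1 was called higher without Gas5 B, Gas5 C or GFP A.

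Other genes of differentiating and newly formed oligodendrocytes showed 1 increase and 2 decreases among 21 tested, beside 1.48% and 3.96% of all tested genes. Their median log2 fold change was 0.0078. At an unadjusted p under 0.05 there were 4 in each direction, beside 10.2% of all tested genes higher and 11.2% lower. Tmem163, a zinc transporter gene, fell to 23.2 ± 4.37 CPM in the Gas5 group, against 50.2 ± 10.1 CPM in the GFP group (SD, n = 3 each, log2 fold change -1.11, adjusted p = 0.0118). Rras2, a small GTPase gene, fell to 17.4 ± 0.993 CPM in the Gas5 group, against 25.3 ± 3.07 CPM in the GFP group (SD, n = 3 each, adjusted p = 0.0163). Chn2, which encodes a chimaerin, rose to 172 ± 5.94 CPM in the Gas5 group, against 140.4 ± 11.1 CPM in the GFP group (SD, n = 3 each, adjusted p = 0.0369). The cortical score was lower in the same Gas5 libraries. As a covariate it left Tmem163 at a log2 fold change of 0.067, Rras2 at -0.58 and Chn2 at 0.10, in a fit that called 0 genes in all. The adjusted p of Chn2 lay between 0.0606 and 0.152 when any library but GFP A was left out. Tmem163 stood at 0.0562 without GFP B, and at 0.0522 when GFP C was left out, and Rras2 at 0.0522 without GFP C. Of the 21, 0 were called without GFP C, and 1 was called, as lower, without GFP B. The gene 9630013A20Rik, a long noncoding RNA of newly formed cells, was listed at 0, and its span is wholly shared with other listed genes.

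Mature oligodendrocyte and myelin genes, the next stage, had 2 increases and 1 decrease among 17 tested. Over all tested genes 1.48% rose and 3.96% fell. Of the 17, 15 had a negative log2 fold change, and the median of all 17 was -0.20. At an unadjusted p under 0.05 there were 2 with a higher and 9 with a lower level, beside 10.2% and 11.2% of all tested genes. The groups were apart with Gas5 higher for 2 and with Gas5 lower for 7, beside 13.8% and 13.9% of all tested genes. DESeq2 called 2 higher and 3 lower, limma-voom 2 higher and 0 lower, and the exact test 2 in each direction. Aspa, the aspartoacylase gene, fell to 18.2 ± 0.606 CPM in the Gas5 group, against 23.4 ± 2.72 CPM in the GFP group (SD, n = 3 each, adjusted p = 0.0467). Apod, which encodes apolipoprotein D, rose to 92.8 ± 5.71 CPM in the Gas5 group, against 62.8 ± 9.38 CPM in the GFP group (SD, n = 3 each, log2 fold change 0.56, adjusted p = 0.0188). Klk6, a kallikrein protease gene, rose to 2.18 ± 0.459 CPM in the Gas5 group, against 1.04 ± 0.135 CPM in the GFP group (SD, n = 3 each, log2 fold change 1.06, adjusted p = 0.0278). Without GFP B or without GFP C 0 of the 17 were called. Aspa had an adjusted p between 0.0750 and 0.137 without any library other than GFP A, and Klk6 one between 0.0547 and 0.123 without Gas5 B, GFP A, GFP B or GFP C. Apod stood at 0.0934 without GFP B and 0.0932 without GFP C. The cortical score was lower in the Gas5 libraries. With it as a covariate the log2 fold change was -0.0056 for Aspa, 0.035 for Apod and 0.85 for Klk6, in a fit that called 0 genes in all.

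The ligands of the PDGF receptors and Pdgfrb, the receptor of pericytes, showed no called gene. Of the 5 tested, 0 passed with edgeR, with 0 at an unadjusted p under 0.05, and DESeq2, limma-voom and the exact test called 0. All 5 log2 fold changes were negative, from -0.19 for Pdgfc to -0.013 for Pdgfb, with a median of -0.044. Pdgfrb was at 24.0 ± 0.589 CPM in the Gas5 group, against 24.7 ± 0.919 CPM in the GFP group (SD, n = 3 each). Pdgfa, the main ligand for precursors, was at 13.7, 12.2 and 15.05 CPM in the Gas5 libraries, against 14.1, 14.2 and 13.8 CPM in the GFP libraries, and the groups overlapped.

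Genes known as inhibitors of oligodendrocyte differentiation had 0 increases and 1 decrease among 13 tested, beside 1.48% and 3.96% of all tested genes. Their median log2 fold change was -0.058. At an unadjusted p under 0.05 there were 1 with a higher and 4 with a lower level, beside 10.2% and 11.2% of all tested genes. DESeq2 called 1 higher and 1 lower, limma-voom 0 higher and 1 lower, and the exact test 1 higher and 2 lower. Lingo1, a co-receptor in the brake on myelination that neurons express as well, fell to 124 ± 6.09 CPM in the Gas5 group, against 179 ± 25.7 CPM in the GFP group (SD, n = 3 each, log2 fold change -0.53, adjusted p = 0.0224). Its adjusted p was 0.0544 without Gas5 C, 0.102 when GFP B was left out and 0.0887 when GFP C was. Adding the cortical score as a covariate gave it a log2 fold change of -0.022. Id2, a helix-loop-helix inhibitor, was at 10.7 ± 0.433 CPM in the Gas5 group, against 13.05 ± 0.939 CPM in the GFP group (SD, n = 3 each), and its adjusted p was 0.0732.

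**Figure D4:**
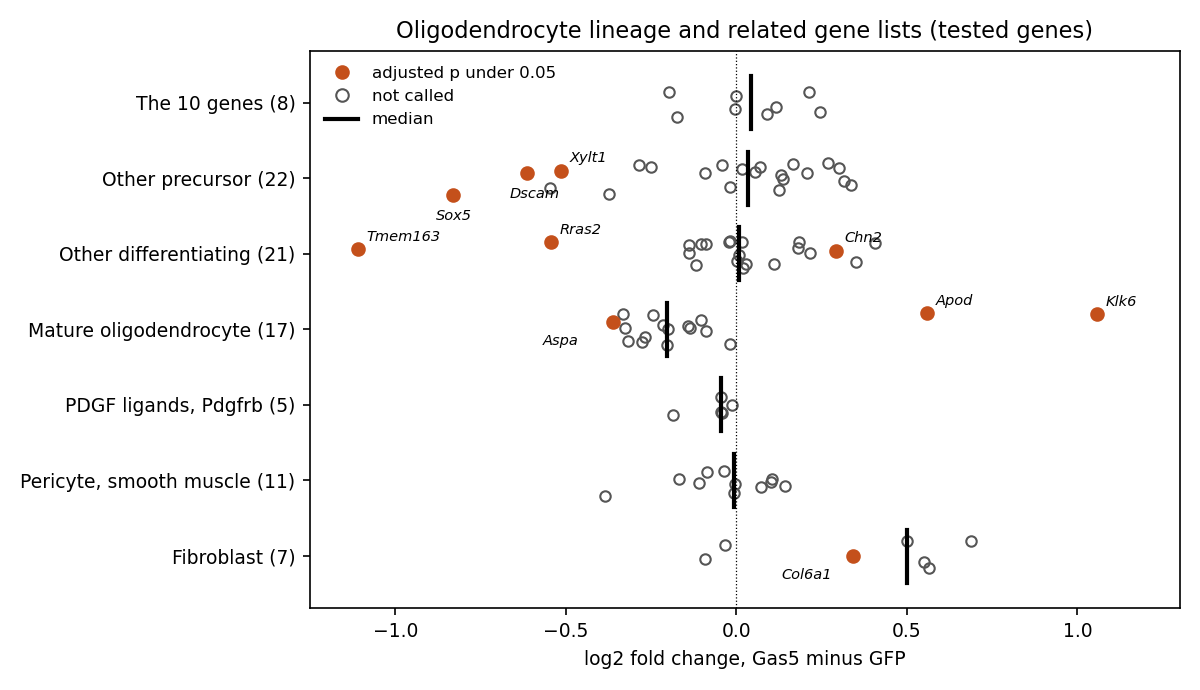
Log2 fold change, Gas5 minus GFP, of every tested gene in the 10-gene set and in 6 related lists, with genes past an adjusted p of 0.05 filled and named and the list median as a black line (number tested in brackets). The 8 genes lie within 0.25 of 0, whereas filled genes in the other lists run from Tmem163 at -1.11 to Klk6 at 1.06.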

How the data were processed

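The 6 samples gave total RNA that was depleted of ribosomal RNA and made into directional libraries, as the labels' protocols describe. Tools named in the submitters' processing notes are featureCounts (1.5.0-p3), STAR (2.7.0), edgeR (3.20.9), Trim Galore (0.4.4) and bcl2fastq (1.8.4), with GRCm38.p6 as the build, and how strand and overlaps were set is not given in the sources used here. Per the file headers, the deposited tables hold a raw count for each gene, not normalized. Lengths equal whole gene spans for the genes listed as 1 interval, so introns were counted, and genes wholly shared with other listed genes carry no counts. Coordinates of all 10 genes match GENCODE M21.

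The comparison was run with edgeR 4.0.16 under R 4.3.3. The default expression filter left 17563 genes, libraries were scaled by TMM, and Gas5 minus GFP was tested over all 6 libraries by the quasi-likelihood F-test, 2-sided, with Benjamini-Hochberg adjustment over all genes and a threshold of 0.05. Logarithms of CPM use a pseudocount of 0.5. On simulated counts of 17400 genes for this comparison the fit recovered 60% of genes changed by 0.5 and 87% of those changed by 1 on the log2 scale. The simulation gave every gene the same dispersion, a biological coefficient of variation of 8.28%. It therefore does not give the recovery for genes of wider spread or smaller change. DESeq2 1.42.0, limma-voom (limma 3.58.1), the exact test, other scalings and filters, the replicate letter as a block, robust dispersion, the cortical score as a covariate and leaving out each library were alternatives. Libraries of 1 group were not copies of each other: chi-square per degree of freedom was at least 5.04 for every pair. The 10 genes and the lists were chosen with earlier results of these data known. Named besides the 10 genes and Gas5 were the called genes (at most 5 in each direction) and the 2 of smallest p in the lineage lists. Lims2, 9630013A20Rik, Rgs5, Col6a1, Igf2, Pdgfa and Pdgfb, and genes named in the closing section, were added after their values were seen.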

Additional observations from a re-analysis of the deposited data

How the results depend on the processing

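Over 16 alternatives, 0 of the 8 genes were called lower in any, and 1 was called higher in 1 of them, Cspg4 without Gas5 C, so that leaving out a library gave between 0 and 1 gene higher. Bcas1 and Enpp6 had a negative and Cspg4 a positive log2 fold change in all 16. Adding the cortical score as a covariate gave log2 fold changes of -0.041 for Pdgfra, -0.38 for Neu4, -0.38 for Olig2, -0.40 for Olig1, 0.10 for Lhfpl3, -0.011 for Enpp6 and 0.067 for Tmem163, and edgeR called 0 genes in all. Lhfpl3, at -0.00099 as reported, turned to 0.024 with upper quartile scaling, 0.0050 with no filter and 0.0012 with a filter of 1 CPM in 3 libraries, and ranged from -0.037 to 0.017 when a library was left out. Olig1, at -0.0031, turned to 0.021 with upper quartile scaling and 0.0023 with no filter, and ranged from -0.066 to 0.067 when a library was left out. Olig2 ranged from -0.044 to 0.32 then. The cause of these turns was not tested.

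Whether the letters pair the samples was not settled. Deviations from the group mean correlated at 0.164 for A, 0.179 for B and -0.0936 for C. Between libraries of unlike letters the correlation lay between -0.227 and 0.0563, below the values for A and B. With the replicate block 0 of the 8 genes were called, and Cspg4 had an adjusted p of 0.0663. The block gave 510 higher and 928 lower genes over all, against 260 and 695 without it.

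Over all genes 260 were higher and 695 lower. Higher calls numbered 656 with no filter, 495 by DESeq2, 681 by the exact test, 6 without GFP C, 4 without GFP B and 112 without Gas5 A. Lower calls numbered 1093 by the exact test, 111 without GFP B and 101 without GFP C. Over the alternatives other precursor genes had 0 to 1 higher and 0 to 5 lower, other differentiating genes 0 to 2 in each direction, mature genes 0 to 2 higher and 0 to 4 lower, inhibitors 0 to 1 higher and 0 to 2 lower, and fibroblast markers 0 to 3 higher. Microglia markers had 0 to 5 higher and medium spiny neuron markers 0 to 1. Cortical markers had 0 to 9 lower, with 4 when GFP B or GFP C was left out. Their 0 came from the fit with the cortical score as a covariate. The score is made of these same genes, so that 0 says nothing of their change. That fit called 0 genes in all, so it alone puts a 0 in each range given here. Leaving out a library gave 1 to 4 lower for other precursor genes. PDGF genes and pericyte markers had 0 called in all. Depth limits Neu4 the most, with 148 counts in GFP C.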

Other observations

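Cycling cell markers, which dividing precursors share with other dividing cells, had 2 of 12 tested genes higher and 0 lower. Over all tested genes 1.48% were higher and 3.96% lower. All 12 log2 fold changes of the cycling cell markers were above 0 (median 0.89). Mki67, a marker of cycling cells, was at 16.9 ± 3.07 CPM in the Gas5 group and 11.2 ± 0.967 CPM in the GFP group (SD, n = 3 each, edgeR adjusted p = 0.0357). Their summed level was between 53.1 and 79.2 CPM in the Gas5 libraries and between 36.1 and 45.6 CPM in the GFP libraries. Over the alternatives the number higher ran from 0 to 6, with 1 without Gas5 A, 4 without Gas5 B and 0 on leaving out any GFP library. These genes do not tell which cells divide. Neuroblast markers had 0 higher and 1 lower of 6 tested, beside 1.48% and 3.96% of all tested genes. The gene called was Sp8, a transcription factor gene at a low level. Its counts were 8, 16 and 17 in the Gas5 libraries, against 52, 31 and 30 in the GFP libraries. On leaving out any library except Gas5 C 0 neuroblast markers were lower. DESeq2, limma-voom and the exact test each called 0 of them higher and 1 lower. At an unadjusted p under 0.05 there was 1 neuroblast marker in each direction, beside 10.2% of all tested genes higher and 11.2% lower.

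Among 11 tested microglia markers the log2 fold change was above 0 in all 11 (median 0.30), and edgeR called 0. There were 8 at an unadjusted p under 0.05, beside 10.2% of all tested genes that were higher at that level. DESeq2 called 3, limma-voom 1 and the exact test 5, against 495, 216 and 681 higher over all 17563 tested genes. Astrocyte markers had 1 of 11 higher, Aqp4, a water channel gene, beside 1.48% of all tested genes. Their median log2 fold change was 0.17, and between 0 and 4 were higher over the alternatives. Apart from Gas5 B and GFP A, leaving out any library gave 0 called. Medium spiny neuron markers had 0 of 12 called, with 1 higher at an unadjusted p under 0.05, beside 10.2% of all tested genes. DESeq2 and the exact test called 1 of these markers and limma-voom 0.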
